A study of Arabidopsis thaliana with 4 samples.

Results

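The 656 probes described here are the array tiles with identifiers from TA30 to TA36 that hold a value, out of 21685 tiles with a value in the whole profile. They come from a ChIP-on-chip measurement of histone H3 trimethylated at lysine 36 (H3K36me3) in whole Arabidopsis thaliana seedlings. The tiles were taken by plate number: every identifier of plate set TA on plates 30 to 36 with a value in all 4 deposited columns, ordered by plate, then row, then column. The range was chosen by the mean ratios and shares of high ratios per plate in these same data, as a stretch with more high ratios than the stretches on either side. Its overall level is therefore a description, and no test of it against the rest of the array is given.

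All chromatin came from the wild-type accession Col-0, labelled 10 days old, grown untreated in liquid half-strength MS medium under long days. ChIP DNA, obtained with the Abcam antibody ab9050, was hybridised against the matching input DNA in 2 colours, Cy5 and Cy3. Extracts came in 2 pairs (I and II in the labels, here replicates 1 and 2), each on 2 arrays with exchanged dyes, and no other genotype, treatment or antibody was compared. Both arrays of a pair hold identical values at all 21685 probes, so each pair counts as 1 replicate (n = 2). No label says whether separate cultures gave the pairs, so the spread between them may be technical. Whole seedlings mix many cell types, so a higher level of the mark and more cells that carry it cannot be told apart.

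H3K36me3 is a mark of the bodies of transcribed genes. In Arabidopsis it is laid down mainly by the SET-domain methyltransferase SDG8, and it is known to be scarce over transposons and silent heterochromatin. On a tiling array each probe reports a piece of DNA, so a marked gene body would cover several neighbouring tiles if the identifiers follow the genome. No table used here pairs the identifiers with positions or genes, so no gene, sequence or coordinate is given. The deposited value is a log ratio whose base and direction are not given. High and low therefore describe the ratio as deposited, and they would be exchanged for the mark if the ratio runs input over ChIP. Every value below is a log ratio relative to the median of its replicate over all probes, unless stated otherwise.

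The 7 plates have 672 identifiers, of which 16 have no value. Plate TA34 accounts for 14 of these and TA31 for the other 2. All 14 on TA34 sit in even-numbered columns of rows A, C, E and G, so TA34 is the least completely measured plate, with 82 of 96 wells.

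A normal mixture with 2 components, fitted to the replicate mean of all probes, divided the profile into a lower and an upper population. Tiles with a posterior probability above 0.99 for the upper component were taken as upper, which in practice meant a mean ratio of at least 0.97. Tiles were taken as lower when that component was the more probable, and those left over are called intermediate. By this division 160 tiles of TA30 to TA36 (24.4%) were upper, against a background of 28.4% over all probes. The lower population held 453 of them (69.1%), against 63.8% over all probes, and 43 (6.55%) were intermediate. The plate range was thus a little poorer in high tiles than the array as a whole, although it lay beside plates that were poorer still.

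The tiles averaged 0.27 in replicate 1 (SD over tiles 1.11) and 0.28 in replicate 2 (SD 1.02). All other probes averaged 0.43 and 0.39 in replicates 1 and 2. Their medians were lower than those means, at -0.15 and -0.10 for TA30 to TA36 and close to 0 for all other probes, because most tiles were low and a minority was high.

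Both populations had nearly the level they had elsewhere, as the distribution of ratios shows. The upper tiles of TA30 to TA36 averaged 2.00 ± 0.60 in replicate 1 and 1.86 ± 0.57 in replicate 2 (SD over 160 tiles). The upper tiles among all other probes averaged 2.03 ± 0.60 and 1.85 ± 0.57 (SD over 5992 tiles). The gap between the 2 sets of upper tiles was thus smaller than that between replicates, in which replicate 1 was the higher. The same cut-offs on these ratios defined the populations everywhere, so likeness of their means is partly built in. In the replicate mean, upper tiles averaged 1.93 here, 1.96 in TA18 to TA29 and 1.89 in TA37 to TA51. The lower tiles averaged -0.38 ± 0.39 in replicate 1 and -0.31 ± 0.35 in replicate 2 (SD over 453 tiles), against -0.33 ± 0.42 and -0.29 ± 0.35 among all other probes (SD over 13373 tiles). With 9 tiles in the top 1% of all probes and 51 (7.77%) in the top 10%, the range also reached the highest ratios of the array.

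**Figure D1:**
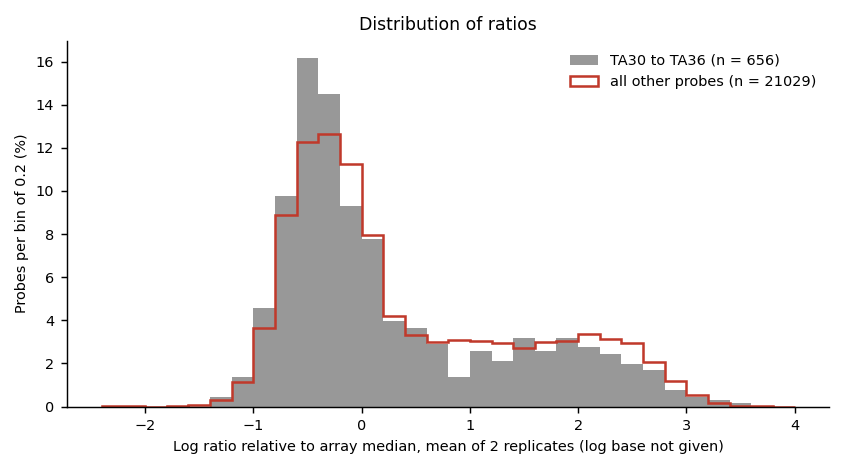
Share of probes (%) in bins of 0.2 of the log ratio relative to the array median (mean of 2 replicates, log base not given), for the 656 tiles of TA30 to TA36 (grey bars) and the 21029 other probes (red line). Both have a narrow low peak and a broad high shoulder, with 24.4% of TA30 to TA36 and 28.5% of the other probes in the upper population.

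Each tile was also compared with the array median in a fit across all probes (limma, Benjamini-Hochberg adjusted threshold of 0.05, n = 2). Of the 656 tiles, 214 (32.6%) were called above, against a background of 38.9% over all probes, and 254 (38.7%) were called below, against 32.3%. The remaining 188 tiles did not pass. All 468 called tiles had the same sign in both replicates, as did 15429 of the 15440 called over all probes. The smallest mean called was 0.307 in size, so equal signs were largely built into a call. The tiles called above were the 160 upper tiles, 42 of the 43 intermediate tiles and 12 lower tiles, while those called below were all lower tiles. These calls use the ratios that set the plate range, so nothing is read from their number. The split also depends on where 0 is put. Calls above were 45.7% of all calls in this range with centring on the median, against 54.7% over all probes. The shares were 19.6% against 23.1% without centring, and 75.4% against 80.5% with centring on the lower population.

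The 7 plates did not form a plateau. In plate order, the share of upper tiles was 15.6% on TA30, 24.5% on TA31, 40.6% on TA32, 32.3% on TA33, 12.2% on TA34, 17.7% on TA35 and 26.0% on TA36. TA32 was the highest, and 53 of the 231 plates of the array had a larger share. The median share over those 231 plates was 29.2%, so TA32 and TA33 lay above it and the other 5 plates below it. Mean ratios followed the same course, with 0.94 in replicate 1 and 0.79 in replicate 2 on TA32, and -0.11 and -0.06 on TA34. Both replicates thus showed 2 crests, at TA32 and at TA36, with a dip at TA34. The lower tiles alone did not follow both crests. They averaged -0.12 in replicate 1 and -0.21 in replicate 2 on TA32, -0.23 and -0.21 on TA31, and -0.28 and -0.20 on TA33. On TA30, TA34, TA35 and TA36 they lay lower, from -0.49 to -0.45 in replicate 1 and from -0.43 to -0.33 in replicate 2.

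On the outer side the change was abrupt at the plate level. Plates TA28 and TA29 together held 3 upper tiles of 170 (1.76%), and TA37 to TA40 held 6 of 296 (2.03%). The stretch before was less uniform than that after. TA26 and TA27 had 16.3% and 16.1% upper tiles, slightly more than TA30, so the first low stretch is interrupted there. Over wider neighbours, 24.4% of the tiles of TA30 to TA36 were upper, compared with 13.3% of the 1069 tiles of TA18 to TA29 and 2.39% of the 1338 tiles of TA37 to TA51. These pooled shares hide uneven plates. TA18, TA19 and TA20 had 39.6%, 27.4% and 27.5% upper tiles, and the highest share within TA37 to TA51 was 9.47%, on TA41.

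The tiles at the limits of the range were not upper. The 12 wells of row A on TA30 ran from -1.16 to -0.17, with a median of -0.73, and the 9 measured wells of row H on TA29 ran from -0.71 to 0.70, with a median of -0.47. At the other limit, the 12 wells of row H on TA36 had a median of -0.50 and those of row A on TA37 a median of -0.45. The first tile, TA30A01, had -0.57 in replicate 1 and -0.32 in replicate 2. The last tile, TA36H12, had -0.17 and -0.06. None of these wells held an upper tile, so the high tiles of the range began and ended inside it: the first was TA30C09 and the last TA36F09.

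**Figure D2:**
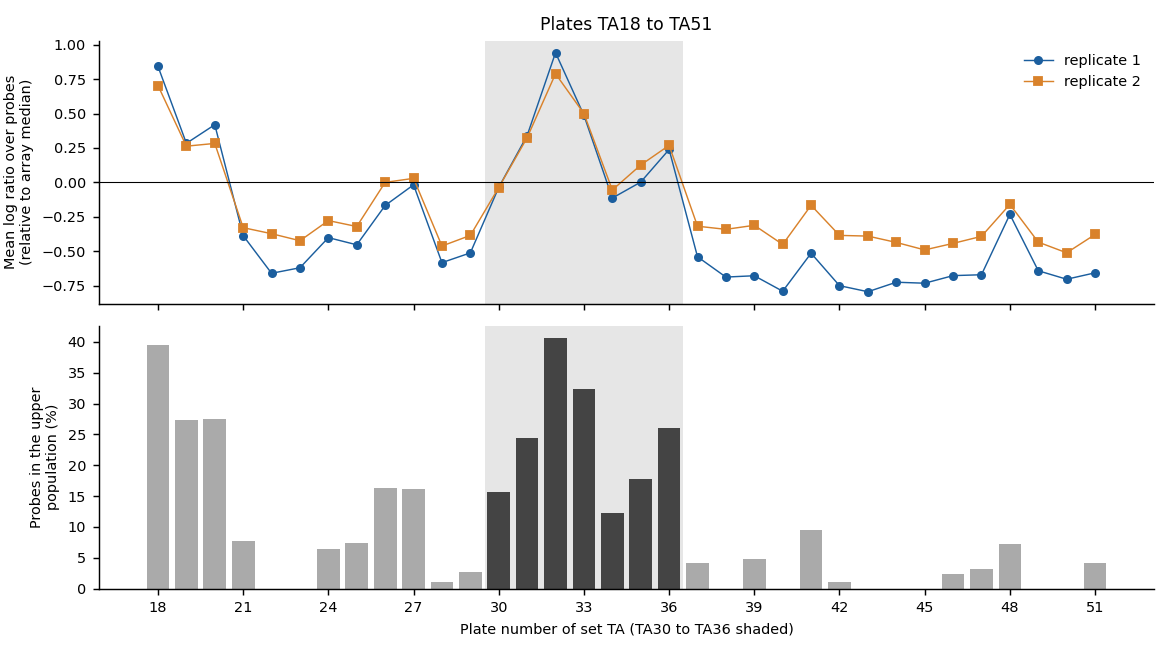
Mean log ratio over probes relative to the array median in replicate 1 (blue circles) and replicate 2 (orange squares), and share of probes in the upper population (%, bars), for plates TA18 to TA51 in identifier order; TA30 to TA36 are shaded. The share is 40.6% on TA32, 12.2% on TA34 and 26.0% on TA36, against 2.70% on TA29 and 4.17% on TA37.

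Within the plates the high tiles stood together in short blocks. The 160 upper tiles formed 43 runs without a gap in the identifiers. These averaged 3.72 tiles with a median of 3, against 3.49 and 3 over the 1719 runs among all other probes. Of the upper tiles, 86.3% lay in runs of 3 or more and 58.1% in runs of 5 or more, against 79.8% and 50.2% elsewhere. Another 10 tiles (6.25%) stood alone, against 5.64% elsewhere, so these shares do not all point to closer clustering. Successive runs were separated by a median of 6 tiles, with a range from 1 to 46. Cut into rows of 12 wells, 17 of the 56 rows held no upper tile, while 13 rows with 6 or more held 91 of the 160.

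The 13 runs of 5 or more tiles held 93 upper tiles. On TA30 and TA31 they ran from TA30C11 to TA30D06 (8 tiles), from TA30H10 to TA31A02 (5), from TA31E11 to TA31F05 (7) and from TA31H09 to TA32A01 (5). On TA32 they ran from TA32A09 to TA32B03 (7), from TA32D05 to TA32D10 (6) and from TA32G05 to TA32G11 (7). After 3 further wells, a run of 4 tiles began at TA32H03. On TA33 and TA34 they ran from TA33A09 to TA33B01 (5), from TA33D04 to TA33D09 (6) and from TA34A11 to TA34B05 (7). The last 3 were TA35C08 to TA35D01 (6), TA36B03 to TA36C06 (16) and TA36D03 to TA36D10 (8). Means of these 13 runs lay between 1.36 and 2.48, with a median of 1.99. The highest was TA32G05 to TA32G11, with 2.61 in replicate 1 and 2.35 in replicate 2, and the lowest was TA35C08 to TA35D01, with 1.19 and 1.54.

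**Figure D3:**
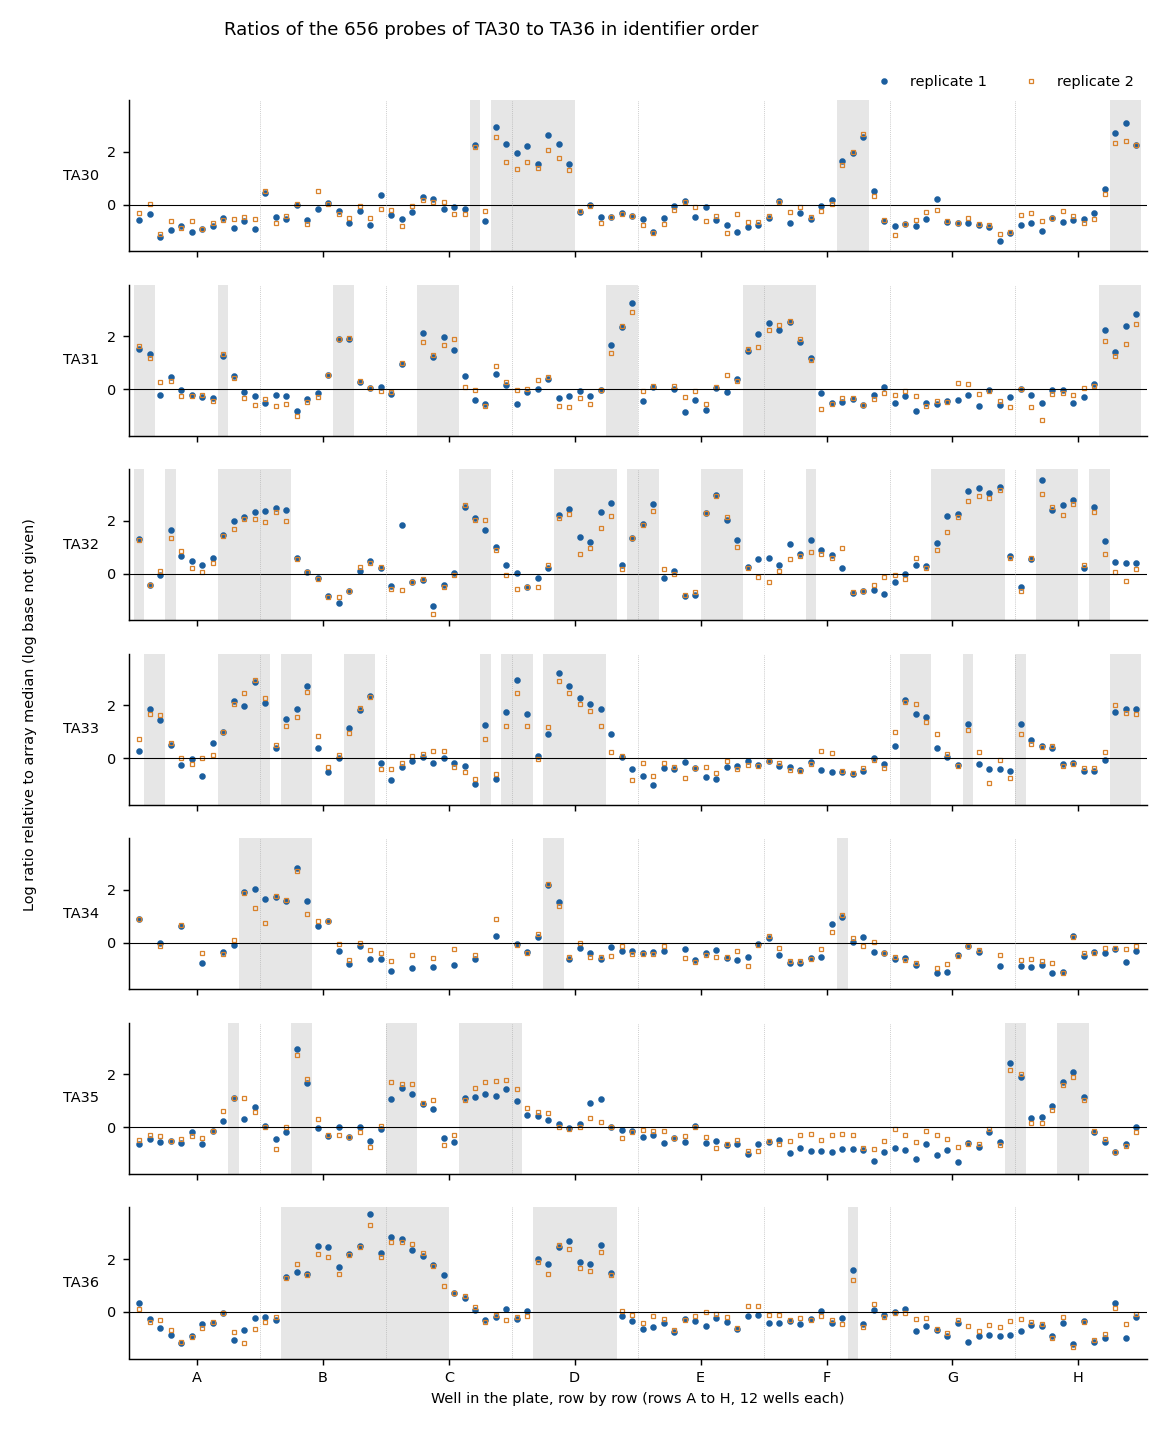
Log ratio relative to the array median (log base not given) of every measured tile in replicate 1 (blue circles) and replicate 2 (orange squares), one panel per plate from TA30 to TA36, wells in order row by row; grey bands mark upper tiles and dotted lines row ends. High tiles stand in blocks between long low stretches, the widest being the 16 tiles from TA36B03 to TA36C06.

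The longest block, TA36B03 to TA36C06, averaged 2.17 ± 0.64 in replicate 1 and 2.05 ± 0.60 in replicate 2 (SD over 16 tiles). It was preceded by TA36B02, at -0.30 in replicate 1 and -0.20 in replicate 2. Its first tile, TA36B03, had 1.30 and 1.27. The ratio then went up unevenly to TA36B11, the peak, with 3.70 in replicate 1 and 3.27 in replicate 2. The adjoining tiles TA36B10 and TA36B12 had 2.51 and 2.24 in replicate 1, and 2.45 and 2.07 in replicate 2. Further on, TA36C01 had 2.83 and 2.64, TA36C04 had 2.10 and 2.22, and TA36C06, the last of the block, 1.38 and 0.97. The block thus opened with a step from a low tile and closed with a slope, since TA36C07 and TA36C08 were still at 0.71 and 0.56 in the replicate mean. After 8 tiles below the upper cut-off came the run from TA36D03 to TA36D10, with 2.08 ± 0.42 in replicate 1 and 1.89 ± 0.44 in replicate 2 (SD over 8 tiles). Together these 2 runs held 24 of the 25 upper tiles of TA36.

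TA36B11 was the highest tile of the range and ranked at place 3 among all 21685 probes, with a mean of 3.48 ± 0.30 (SD, n = 2). The second highest was TA32H03, with 3.53 in replicate 1 and 3.002 in replicate 2, a mean of 3.27 ± 0.37 (SD, n = 2). Its neighbours were unlike each other: TA32H02 before it was intermediate at 0.59, and TA32H04 after it was at 2.46. The lowest tiles were TA32C05, with -1.21 in replicate 1 and -1.50 in replicate 2, and TA36H06, with -1.21 and -1.34. Both lay between tiles of ordinary low ratio, at -0.21 and -0.47 beside TA32C05 and at -0.30 and -0.36 beside TA36H06.

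Upper tiles were most crowded between TA32D05 and TA33D04, where 45 of 96 consecutive measured tiles were upper (46.9%), with a mean of 0.9997 in replicate 1 and 0.92 in replicate 2. They were fewest between TA34B03 and TA35B12, with 9 of 96 (9.38%) and means of -0.16 and -0.09. This second window contains most of the wells without a value. A missing well ends a run, but passing over such wells left the number of upper runs at 43. These 2 windows were chosen for their counts and carry no test.

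Most blocks bordered directly on low tiles. Of 85 block ends with a measured neighbour, 59 (69.4%) adjoined a lower tile directly and 26 (30.6%) an intermediate one. Among all other probes the corresponding shares were 58.2% and 41.8%. The step from the end tile to the tile outside had a median of 1.49, against 1.38 elsewhere, and it exceeded 1 at 59 of the 85 ends (69.4%), against 72.1% of the ends elsewhere. For comparison, the replicate mean of 1 tile had an error SD of 0.152 over these tiles, taken from the difference between replicates. A step is taken between 2 tiles, so its own error SD is larger, and it was not computed. Upper tiles began at 0.97 and lower tiles ended at 0.46, so part of each step to a lower tile was set by the division itself. The largest step, singled out after the values were seen, was from TA31D12 to TA31E01. TA31D12 had 3.26 in replicate 1 and 2.92 in replicate 2, while TA31E01, the next well in the order but in the next row, had -0.44 and -0.08.

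Inside the 13 longer runs the tiles were higher than at the ends. Averaged over runs, the inner tiles had 2.18 in replicate 1 and 1.99 in replicate 2, and the 2 end tiles 1.76 and 1.60. The inner mean was higher in both replicates in 11 of 13 runs (84.6%), compared with 70.4% of the 416 such runs elsewhere. The cut-off applied equally to inner and end tiles, and in some runs an end tile was the highest. An example is TA30C11, at 2.75 in the replicate mean, in the run from TA30C11 to TA30D06. Runs were delimited by these same ratios, so the difference is a description, and its source was not tested. Of the 39 intermediate tiles with both neighbours measured, 25 (64.1%) adjoined at least 1 upper tile, against 70.8% elsewhere. None lay between 2 upper tiles, whereas 244 of 1654 intermediate tiles elsewhere did. The 10 upper tiles that stood alone were low for their population, with a median of 1.16 and a highest value of 2.22. That highest one, TA30C09, had 2.25 in replicate 1 and 2.19 in replicate 2 and was separated by 1 tile from the 8-tile run on TA30.

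Low tiles formed longer stretches than high ones. Runs of 12 or more consecutive lower tiles numbered 12 and contained 272 of the 453 lower tiles (60.0%). Counted with the tiles of these runs beyond the limits of the range, the share was 61.5%, close to the 59.3% among all other probes. Lower runs of any length averaged 7.70 tiles, against 7.60 elsewhere, with a median of 4 in both. Low runs stopped without a measured neighbour at 25 of 122 ends here, against 234 of 3516 elsewhere. Their lengths with missing wells passed over were not computed. The longest low run that lay wholly in the range ran from TA35D10 to TA35G11 (38 tiles), with -0.66 in replicate 1 and -0.42 in replicate 2. Next came TA31F06 to TA31H08 (27 tiles), TA33D11 to TA33F12 (26), TA30D07 to TA30F07 (25), TA30F11 to TA30H08 (22), TA36D11 to TA36F08 (22) and TA34H01 to TA35A09 (21). TA30B02 to TA30C08 and TA35H08 to TA36B02 had 19 tiles each and TA34E05 to TA34F06 had 14. Only missing wells separated the low runs TA34F09 to TA34G03, TA34G05 to TA34G09, TA34G11 and TA34H01 to TA35A09. The same holds for TA34D06 to TA34E03 and TA34E05 to TA34F06. The order of lengths and the share in long low runs therefore depend on the wells without a value. At both limits a low run passed over into the neighbouring plates. TA29H10 to TA30A12 had 15 tiles, 12 of them in the range, and TA36F10 to TA37B02 had 41 tiles, 27 of them in the range. Means of the 12 runs went from -0.65 to -0.22. The low run at the start, at -0.74 in replicate 1 and -0.56 in replicate 2, was the lowest, and TA30B02 to TA30C08, at -0.22 in both replicates, the highest.

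Ratios of tiles with neighbouring identifiers were alike over short distances only. Over 639 pairs of consecutive tiles, Pearson r was 0.743 in the replicate mean, 0.735 in replicate 1 and 0.731 in replicate 2. These pairs share arrays and possibly DNA fragments, so r is a description across tiles. It was 0.532 at 2 identifiers apart, 0.228 at 5 and 0.020 at 12. Over all probes r was 0.731 at 1 identifier apart, 0.501 at 2, 0.297 at 5 and still 0.203 at 12. The tiles of TA30 to TA36 thus had an r close to 0 at a distance of 1 plate row, while the whole array did not. The r over all probes also includes differences in level between plates across the whole array, beyond those within this range. No other range of equal length was compared. The contrast was not tested and is not read as a trait of these plates. Pairs that straddled a row end, from column 12 to column 1, had r = 0.751 (53 pairs), and pairs within a row 0.742 (586 pairs). When the wells were instead read down the columns, r for consecutive tiles was 0.029. In all, 12 of the 43 runs of upper tiles crossed a row end and 2 crossed a plate end, at TA30 to TA31 and TA31 to TA32.

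**Figure D4:**
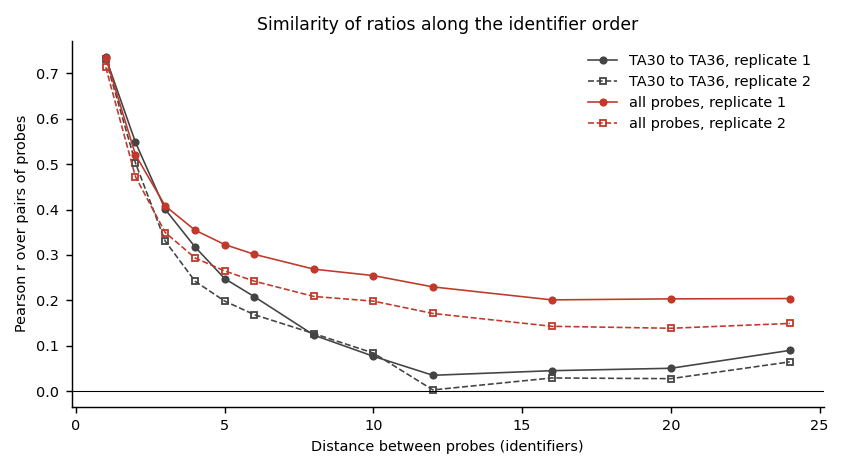
Pearson r of the log ratio over pairs of probes at a given distance in the identifier order, for the tiles of TA30 to TA36 (grey) and for all probes (red), in replicate 1 (filled circles) and replicate 2 (open squares). At 12 identifiers apart r is 0.035 and 0.003 in TA30 to TA36, against 0.230 and 0.171 over all probes, in replicates 1 and 2.

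The replicates gave nearly the same picture of these plates. Across the 656 tiles, which are no independent observations, replicates 1 and 2 correlated with a Pearson r of 0.963 and a Spearman rho of 0.906, against 0.968 and 0.930 over all other probes. Pearson r was 0.890 within the upper tiles and 0.748 within the lower ones. The difference between replicates (replicate 1 minus replicate 2) averaged -0.007 over the tiles, with an SD of 0.305, and exceeded 0.5 in size at 66 tiles (10.1%). Over all other probes it averaged 0.033, with an SD of 0.298, and 9.86% exceeded 0.5. Fitted to each replicate alone, the mixture gave 156 upper tiles in replicate 1 (23.8%, against 27.4% of all probes). In replicate 2 it gave 147 (22.4%, against 26.0%). The lists shared 142 tiles, which is 91.0% of the first list and 96.6% of the second. Such an overlap was not computed over all probes, so it is not read as a trait of these plates.

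A single tile stood far from this agreement. TA32C02 had 1.85 in replicate 1 and -0.61 in replicate 2, a difference of 2.45, the largest among all 21685 probes. The tiles on either side were low in both replicates: TA32C01 had -0.45 and -0.56, and TA32C03 had -0.30 and -0.32. It was intermediate by its mean of 0.62 ± 1.73 (SD, n = 2) and belongs to no run of upper tiles. Without it, the SD of the replicate difference was 0.289. The second largest difference was 0.93 at TA32F01, a lower tile with 0.61 in replicate 1 and -0.32 in replicate 2. It was followed by 0.89 at TA34B01, an upper tile in the run from TA34A11 to TA34B05, with 1.65 and 0.76, and by 0.84 at the intermediate tile TA35D09, with 1.07 and 0.22. In the other direction the largest were -0.80 at TA35A11, with 0.31 and 1.12, and -0.79 at TA32F08, with 0.20 and 0.99, both intermediate.

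**Figure D5:**
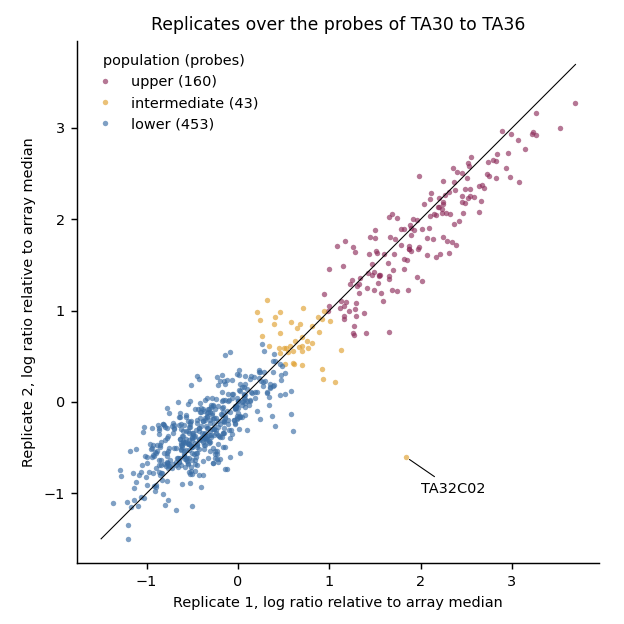
Log ratio relative to the array median in replicate 1 (horizontal axis) and replicate 2 (vertical axis) for the 656 tiles of TA30 to TA36, coloured by population; the line marks equal values. The tiles follow the line (r = 0.963) except TA32C02, at 1.85 and -0.61.

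Replicate 1 had the higher ratios in most high blocks, as it had in upper tiles elsewhere. Over upper tiles it exceeded replicate 2 by 0.148 on average here and by 0.175 among all other probes. Runs elsewhere were not compared in this way. Here replicate 1 had the higher mean in 34 of the 43 upper runs and in 11 of the 13 longer ones. The exceptions among the longer ones were TA33A09 to TA33B01, with 2.03 in replicate 1 and 2.15 in replicate 2, and TA35C08 to TA35D01. On TA35, replicate 1 lay below replicate 2 by 0.12 on average, the largest gap in that direction among the 7 plates, while on TA32 it lay 0.15 above. In row F of TA35, all 12 tiles of which were low, the average was -0.85 in replicate 1, against -0.46 in replicate 2. The tiles of TA37 to TA51 differed in the same direction, with -0.65 in replicate 1 and -0.38 in replicate 2. With 2 replicates, these differences between plates allow no test, and their source was not tested.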

How the data were processed

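Per the labels, ChIP and input DNA were labelled directly after amplification and hybridised on 2-colour arrays with exchanged dyes. The authors deposited 1 log ratio per probe and array. None of the sources used here gives its base, direction, background correction or normalization, or a genome build. Of 21800 identifiers, 21685 had a value. The number of arrays limits the precision, and no signal over background could be computed.

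One column per dye-swap pair was used, and each replicate was centred on its median over all probes. A two-sided limma test (version 3.58.1, R 4.3.3, lmFit on the mean, then eBayes) was run on all 21685 probes, with Benjamini-Hochberg adjustment over all of them. The 2 replicates leave 1 residual degree of freedom, and the prior added 23.1. Its p-values thus rest mostly on the spread between the 2 extract pairs pooled over all probes, and less on a tile's own 2 values. They reflect no other source of variation. The mixture was fitted with scikit-learn 1.9.0. Consecutive means adjoining identifiers, and a missing identifier ends a run. The fit, mixture, runs and correlations were tested on simulated data.

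The members, populations, run lengths and tests were chosen with earlier results of these data known. Tiles are named when they are the 2 highest or 2 lowest, have the 2 largest replicate differences in either direction, bound the range, or bound a run of 5 upper or 12 lower tiles or more. Other named tiles, such as neighbours of these, were chosen after their values were seen. Alternatives were no or another centring, quantile normalization, other limma settings, other mixtures, single replicates and other orders.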

Additional observations from a re-analysis of the deposited data

How the results depend on the processing

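Without centring, 119 of 656 tiles were above (18.1%, against 20.9% of all probes) and 489 below (74.5% against 69.6%). Below the median, 89 were called with centring on the lower population (13.6% against 11.6%) and 36 with a minimum size of 0.5 (treat; 5.49% against 4.86%). Both counts stayed within 1.5 times under quantile normalization, a threshold of 0.01, and eBayes with trend and robust settings, and the count above was 273 with centring on the lower population (41.6% against 47.8%) and 168 with treat (25.6% against 30.8%). The upper share was 30.9% with a posterior above 0.5 (36.2% of all probes), 21.8% with a stricter posterior (25.2%) and 12.3% with the upper of 3 components alone (15.2%). In single replicates it was 22.4% to 23.8%, against 26.0% to 27.4% of all probes. The mean ratio was 0.27 to 0.28 in single replicates and 0.28 under quantile normalization, but -0.89 without centring, and the median was -0.13. The correlation of consecutive tiles was 0.731 to 0.735 in single replicates, 0.718 with plate means taken off and 0.029 down the columns. The number of upper runs was 44 in replicate 1 alone, 42 in replicate 2 alone and 51 with a posterior above 0.5. It was not counted with the stricter posterior or with 3 components. TA32C02 had 1.85 in replicate 1 alone and -0.61 in replicate 2 alone, and TA32F01 had 0.61 and -0.32. Without centring, TA32C02 had -0.54, TA32F01 -1.02, TA35A11 -0.45 and TA32F08 -0.57. Turning every sign gives -3.48 (TA36B11), -3.27 (TA32H03), 1.35 (TA32C05), 1.28 (TA36H06), -0.62 (TA32C02), -0.14 (TA32F01), -0.72 (TA35A11), -0.60 (TA32F08), 0.45 (TA30A01) and 0.12 (TA36H12). Calls without 1 replicate were not run, since no residual degree of freedom is left. No paired analysis was possible because there is 1 group. The base and direction of the ratio limit every value above.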
